A study of Mus musculus with 28 samples.

Results

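The axon guidance ligands and receptors were taken as the protein-coding mouse genes whose symbols name a class 3 to class 7 semaphorin, a plexin, a neuropilin, an ephrin, an Eph receptor, a Slit, a Robo, a netrin, an Unc5 receptor or Dcc. The names give 69 genes, of which 68 were analysed here among the 41605 gene identifiers of the count table, and all 68 passed the filter on low counts that left 17700 genes tested. Ntn3 was not analysed here. The members were 7 class 3 semaphorins, 13 membrane-bound semaphorins, 9 plexins, 2 neuropilins, 8 ephrins, 14 Eph receptors, 3 Slits, 4 Robos, 3 netrins and 5 netrin receptors.

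These families are best known for steering growing axons. Secreted class 3 semaphorins act through neuropilins paired with plexins, while membrane-bound semaphorins bind plexins directly. Ephrins sit on the cell surface and signal to Eph receptor tyrosine kinases on the neighbouring cell, and also backwards into the cell that carries them. Slits are secreted ligands of Robo receptors, and netrins are secreted ligands of Dcc, which attracts, and of the Unc5 receptors, which repel. In peripheral nerve the same molecules are known from axon-Schwann cell contact, from the sorting of Schwann cells after injury and from blood vessel patterning.

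The libraries were poly(A) RNA of whole nerve from C57BL/6J mice, with 4 libraries at each of 7 stages and no treatment or genetic change at any stage. The postnatal libraries (P1, P5, P14, P24 and P60) and the E17 libraries held sciatic nerve from which the perineurium and the layers over it had been stripped as far as possible. Stages are named as in the labels, by embryonic (E) or postnatal (P) day, and the embryonic ages are rounded down in these names. The E13 libraries held several peripheral nerves distal to the dorsal root ganglion. Nerves of more than 1 embryo were pooled in each embryonic library, each postnatal library came from 1 mouse, and both sexes were present at every stage. Age, nerve and dissection therefore changed together between E13 and E17, and their contributions cannot be told apart.

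The total count was 13899895 to 37662780 per library. Markers of neuronal cell bodies, which lie outside a dissected nerve, had a summed level of 1530 to 2750 CPM (counts scaled to the size of each library) at E13 and of 11 to 58.5 CPM in every later library. The summed level of 6 myelin genes of Schwann cells was 278 to 647 CPM at E13 and 198000 to 231000 CPM at P14. Skeletal muscle markers reached 624 CPM in E13 replicate 2 and 31.1 to 63.4 CPM in the other E13 libraries. Some members ran in order over E13 replicates 1 to 4, with replicates 1 and 4 at the ends. Examples, picked after their values were seen, were Sema6d (128.2, 84.68, 42.03 and 28 CPM) and, the other way, Efnb3 (50.74, 57.26, 62.25 and 90.41 CPM). The cause of this order was not tested. Without E13 replicates 1 and 4 together, a choice made after seeing the data, 41 members (60.3%, against 35.1% of all genes) were called between E17 and E13, 11 of them higher and 30 lower, and the calls of Epha1, Sema3d and Slit2 were lost.

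Upstream sequences are shown for Sema6c, Sema5a, Plxnb1 and Sema6d, which rose together between E17 and P1, and for Plxnb3, the leading plexin. The sequences are the 250 bases before the start site in RefSeq, build GRCm38.p6, and 59 of the 69 symbols had at least 1 such entry. Sema6c and Sema6d each had 2 entries, of which the first along the chromosome is shown. Capitals mark a match, on either strand, to the SOX core ACAAAG, the EGR core GCGTGGGCG, the TEAD core GGAATG or the E-box CACGTG.
Sema6c, chr3:95160170-95160419, plus strand: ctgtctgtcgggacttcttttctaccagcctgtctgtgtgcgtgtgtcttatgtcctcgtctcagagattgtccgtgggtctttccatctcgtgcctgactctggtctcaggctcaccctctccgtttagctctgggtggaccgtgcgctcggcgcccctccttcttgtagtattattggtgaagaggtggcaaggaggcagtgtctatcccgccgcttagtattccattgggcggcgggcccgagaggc
Sema5a, chr15:32244563-32244812, plus strand: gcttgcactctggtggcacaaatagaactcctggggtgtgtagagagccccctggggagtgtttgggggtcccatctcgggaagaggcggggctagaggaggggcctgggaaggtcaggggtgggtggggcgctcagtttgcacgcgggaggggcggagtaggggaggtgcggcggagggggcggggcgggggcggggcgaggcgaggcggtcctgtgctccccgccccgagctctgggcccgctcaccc
Plxnb1, chr9:109095186-109095435, plus strand: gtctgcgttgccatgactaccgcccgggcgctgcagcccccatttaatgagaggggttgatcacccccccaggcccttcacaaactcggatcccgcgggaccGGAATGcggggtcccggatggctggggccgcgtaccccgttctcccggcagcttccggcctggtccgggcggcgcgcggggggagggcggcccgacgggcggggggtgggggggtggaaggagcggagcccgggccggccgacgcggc
Plxnb3, chrX:73756853-73757102, plus strand: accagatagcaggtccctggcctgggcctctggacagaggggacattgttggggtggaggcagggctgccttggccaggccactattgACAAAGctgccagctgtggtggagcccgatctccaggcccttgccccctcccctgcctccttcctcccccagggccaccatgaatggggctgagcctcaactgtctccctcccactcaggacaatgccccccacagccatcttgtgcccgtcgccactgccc
Sema6d, chr2:124089719-124089968, plus strand: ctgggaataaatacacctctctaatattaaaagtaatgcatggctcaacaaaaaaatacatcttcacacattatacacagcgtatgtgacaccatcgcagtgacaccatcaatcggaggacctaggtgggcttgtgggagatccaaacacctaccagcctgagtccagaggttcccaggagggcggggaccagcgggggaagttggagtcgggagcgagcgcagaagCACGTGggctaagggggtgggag
Among the 75 upstream sequences of members, ACAAAG was found in 9.33% against 16.5% of the 32851 upstream sequences of all genes, and GGAATG in 10.7% against 12.6%. GCGTGGGCG was found in 2.67% of the members' sequences against 0.536%, which is 2 sequences (Efna3 and Plxna2), and CACGTG in 5.33% against 6.02%. The members' sequences had a median GC content of 64.4% and a median of 15 CpG dinucleotides, against 52.4% and 6 over all genes. Sema6c and Sema5a held no match to any of the 4 motifs in the sequences shown. The entry of Sema6d not shown held a match to ACAAAG, and that of Sema6c held none.

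Over the 7 stages 62 of 68 members (91.2%) changed, against 70.3% of the 17700 genes tested, where a change was an adjusted p under 0.05 in edgeR's quasi-likelihood test and a range of stage means of at least 2-fold. The median range of the members was 3.22 on the log2 scale, against 1.65 over all genes. The 6 members below that threshold were Ephb4, Efna1, Efnb1, Sema4d, Sema6b and Plxna3. Highest stage means were at E13 for 30 members (44.1%, against 32.4% of all genes), at E17 for 14 (20.6% against 16.2%) and at P60 for 13 (19.1% against 21%). P5 held the highest mean of 4 members (5.88%, against 4.98% of all genes) and P14 of 4 (5.88% against 6.34%). P24 held that of 2 (2.94% against 7.99%) and P1 of 1, Plxnd1 (1.47% against 11.1%). Scaling to library size alone moved the highest stage of 14 members. Among them were Plxnd1 (P1 to E17), Robo4 (P60 to E17), and Slit3 and Ntn1 (P60 to E13).

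**Figure D1:**
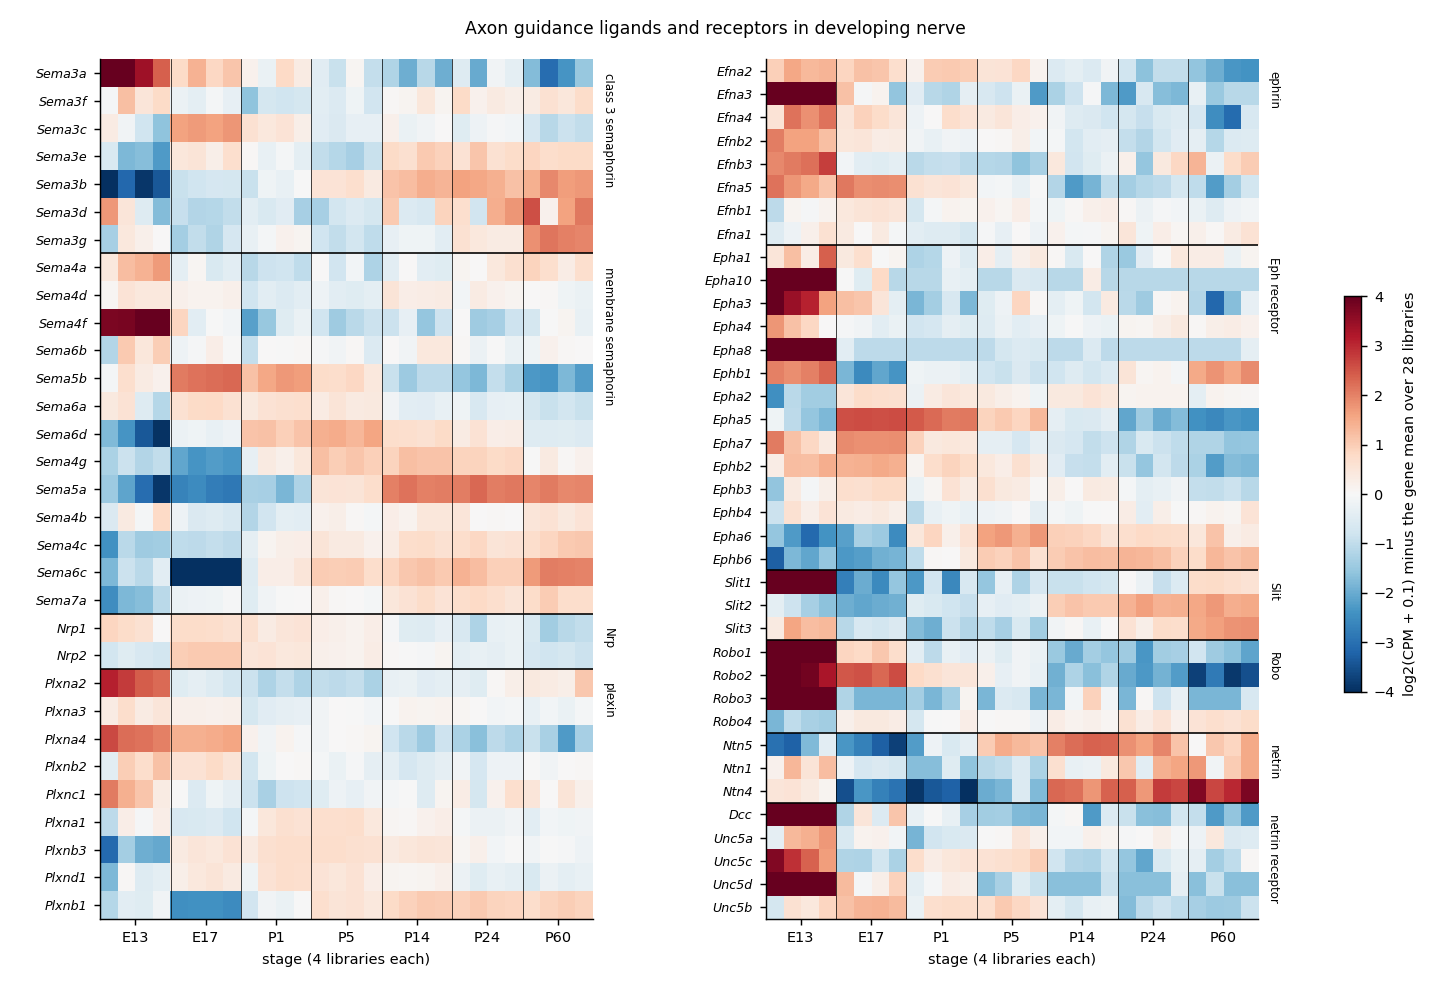
Level of each of the 68 members in each library, as log2(CPM + 0.1) minus the gene's mean over the 28 libraries. Columns are libraries grouped by stage, rows are genes grouped by class, red is above and blue below the gene's mean, and the colours are cut at 4 log2 units either way. Robo3, Slit1, Dcc and Epha8 are deepest red in the E13 columns, whereas Sema6c, Sema5a, Slit2 and Ntn4 are red in the late columns.

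The first question was how the guidance genes differ between the early nerve and the late embryonic sciatic nerve. At E17 11 members were higher than at E13 (16.2%, against 14.2% of all genes) and 31 were lower (45.6%, against 21.2%), at an adjusted p under 0.05 and at least 2-fold. The members' median log2 change was −0.87, against −0.08 over all genes. Among the Slit and netrin systems 3 of 4 Robos, 4 of 5 netrin receptors, 3 of 3 Slits and 2 of 3 netrins were lower. The Slit2 fall was under 2-fold in 8 of 20 alternatives, at log2 −0.76 without E13 replicate 1 and −0.99 without E13 replicate 2 or E17 replicate 2. Of 14 Eph receptors 6 were lower and 2 higher, and of 8 ephrins 4 were lower and none was higher.

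Robo3, a receptor known for letting commissural axons cross the midline, had 25.8, 36.9, 25 and 46 CPM in the E13 libraries and 0.055, 0, 0 and 0 CPM at E17. The E17 libraries held 1 count of Robo3 in all, and the gene was at least 177-fold lower when 3 counts per library are taken as the floor (adjusted p = 3.2e-12). Epha8, an Eph receptor, had 3.97, 13, 10 and 15.2 CPM at E13 and 0.055, 0, 0 and 0 CPM at E17, at least 55.9-fold lower (adjusted p = 2.1e-10). Slit1, a ligand of Robo1 and Robo2, had 26.8, 39.2, 36.1 and 63.7 CPM at E13 and 0.055, 0.158, 0.0776 and 0.251 CPM at E17, a log2 change of −8.28 ± 0.45 (SE, adjusted p = 1.5e-14). The E13 and E17 libraries did not overlap for any of these 3 genes.

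Dcc, the attractive netrin receptor, fell from 28.5 ± 9.23 CPM (SD, n = 4) at E13 to 0.467 ± 0.375 CPM at E17 (log2 −5.99 ± 0.47, adjusted p = 2.1e-11). Robo1 fell from 91.3 ± 29.7 to 6.06 ± 0.695 CPM, a log2 change of −3.91 ± 0.24. Seen over all 7 stages, 9 members had a mean of at least 5 CPM at E13 and under 2 CPM at every later stage: Dcc, Unc5d, Robo3, Slit1, Epha8, Epha10, Efna3, Sema3a and Sema4f. They were 13.2% of members, against 3.25% of all genes, and the rule was chosen after the values were seen. All 13 neuronal cell body markers were lower at E17 as well, with a median log2 change of −6.41, and at E17 Rbfox3, Slc17a6 and Mnx1 had 3 counts or fewer in every library. Macrophage markers (6 of 6 called lower, 346 to 446 CPM to 99.4 to 113 CPM), skeletal muscle markers (6 of 7, 31.1 to 624 CPM to 6.81 to 24.4 CPM) and 3 of 7 pericyte and smooth muscle markers (152 to 373 CPM to 153 to 186 CPM) were lower too. The part of these markers in the falls of the guidance genes was not tested.

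Of the 11 members that rose from E13 to E17, the 3 with the largest log2 changes were Epha5, Sema3b and Plxnb3. Epha5, a receptor for A-class ephrins, had 39.6, 21.2, 15.2 and 12.6 CPM at E13 and 264, 273, 265 and 272 CPM at E17 (log2 3.59 ± 0.23, adjusted p = 4.2e-13). Sema3b, a secreted class 3 semaphorin, had 19.4, 67.8, 40.8 and 57 CPM at E13 and 325, 348, 378 and 372 CPM at E17 (log2 2.94 ± 0.24, adjusted p = 4.9e-11). Plxnb3, a B-class plexin, had 24.9, 83.2, 55.4 and 52.3 CPM at E13 and 279, 301, 286 and 319 CPM at E17 (log2 2.46 ± 0.2, adjusted p = 2.4e-11). In each case the lowest E17 library lay above the highest E13 library. The other 8 that rose were Sema6d, Epha2, Sema3c, Sema3e, Sema5b, Robo4, Nrp2 and Sema7a, with log2 changes of 1.55 to 2.41. Schwann lineage markers rose over the same interval, 6 of 6, from a summed 408 to 907 CPM to a summed 3570 to 4030 CPM. Other markers went up as well, namely proliferation (6 of 6, 416 to 539 CPM to 2210 to 2290 CPM), endothelial (5 of 10, 210 to 273 CPM to 369 to 437 CPM), perineurial (3 of 6, 39.9 to 75 CPM to 247 to 285 CPM) and fibroblast markers (3 of 8, 476 to 854 CPM to 4630 to 5740 CPM). Most of the fibroblast sum was Col1a1 (370 CPM at E13 and 4820 CPM at E17), and the median log2 change of that list was 0.17. The part of these markers in the rises was not tested.

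**Figure D2:**
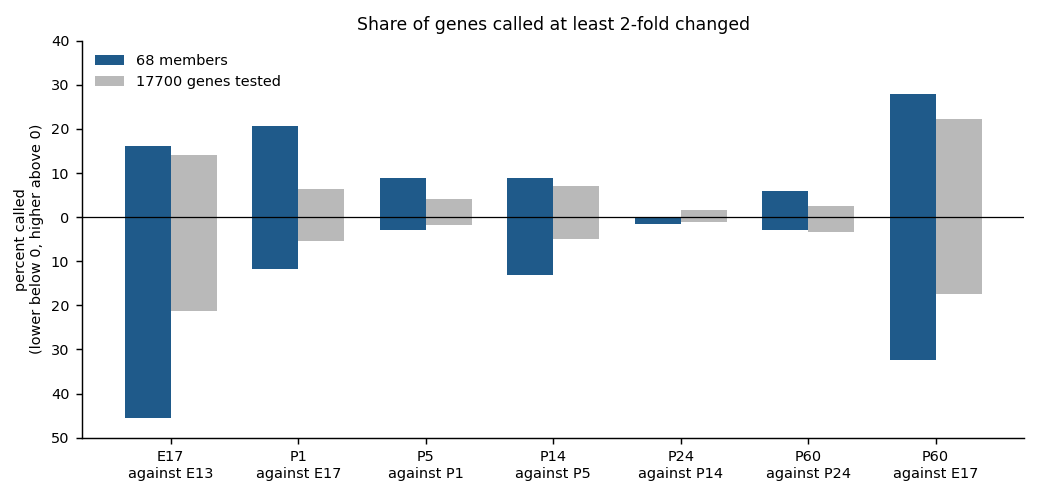
Share of the 68 members (blue) and of the 17700 genes tested (grey) that were called in each comparison, in percent, with genes higher at the later stage above 0 and lower ones below. Falls from E13 to E17 covered 45.6% of members against 21.2% of all genes, and rises from E17 to P1 covered 20.6% against 6.31%.

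The comparison of P1 with E17 spans birth, when Schwann cells begin to myelinate. At P1 14 members were higher (20.6%, against 6.31% of all genes) and 8 were lower (11.8%, against 5.41%). Semaphorins of the membrane-bound classes gave 5 of the rises, those of Sema6c, Sema4g, Sema6d, Sema5a and Sema4c, and 1 fall, that of Sema4f. The members' median log2 change was −0.57 against 0 over all genes, so that the rises stood beside smaller decreases in many of the others.

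Sema6c, a transmembrane semaphorin that signals through A-class plexins, had 4.34, 4.38, 4 and 4.59 CPM at E17 and 54.2, 92.1, 92.7 and 107 CPM at P1 (log2 4.32 ± 0.23, adjusted p = 2.8e-14). Sema4g, another transmembrane semaphorin, had 27.9, 22.6, 24.6 and 23.3 CPM at E17 and 92.9, 151, 135 and 159 CPM at P1 (log2 2.45 ± 0.14, adjusted p = 9.1e-14). P1 replicate 1 was the lowest of its stage for both, and still more than 3 times the highest E17 library. Epha6, an Eph receptor, had 1.54, 2.96, 2.6 and 1.19 CPM at E17 and 10.1, 13.4, 8.42 and 11.1 CPM at P1 (log2 2.35 ± 0.27, adjusted p = 1.2e-07). Plxnb1, the plexin that binds class 4 semaphorins, rose from 29.2 ± 0.765 to 133 ± 28.5 CPM (log2 2.19 ± 0.16). The summed level of the myelin genes moved with these rises, from 3900 to 4460 CPM at E17 to 26500 to 49800 CPM at P1, and its part in them was not tested.

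Several of the early receptors and an ephrin fell at birth. Epha3 had 3.41, 3.17, 2.02 and 1.07 CPM at E17 and 0.328, 0.5, 0.875 and 0.341 CPM at P1 (log2 −2.24 ± 0.56, adjusted p = 0.0032). Robo2 had 18.2, 19.2, 16.2 and 20.1 CPM at E17 and 5.58, 5.04, 4.52 and 4.47 CPM at P1 (log2 −1.91 ± 0.26, adjusted p = 1.8e-06). Plxna4, a plexin that pairs with neuropilins to receive class 3 semaphorins, had 56.2, 56.2, 58.1 and 62.5 CPM at E17 and 23.2, 18.7, 22.7 and 20.1 CPM at P1 (log2 −1.46 ± 0.19, adjusted p = 7.1e-07). No E17 library of these 3 genes reached down to the P1 range. Efna5, Robo1, Epha7, Sema3c and Sema4f also fell, by 1.19 to 1.43 on the log2 scale. The Sema4f call was lost in 5 of 19 alternatives, among them those without E17 replicate 1 (adjusted p = 0.17), P1 replicate 1 (0.096) or P1 replicate 2 (0.092). Markers called lower over the same step were 6 of 7 of skeletal muscle (summed 6.81 to 24.4 CPM to 0.589 to 2.48 CPM), 3 of 13 of neuronal cell bodies (31.8 to 51.1 CPM to 11 to 29.7 CPM), 2 of 10 endothelial (369 to 437 CPM to 211 to 243 CPM), 2 of 6 perineurial (247 to 285 CPM to 151 to 229 CPM) and 2 of 6 of proliferation (2210 to 2290 CPM to 1050 to 1440 CPM). Their part in the falls was not tested.

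Fewer members moved between P1 and P5. At P5 6 were higher (8.82%, against 4.05% of all genes) and 2 were lower (2.94%, against 1.79%). With scaling to library size alone the split was 3 higher (4.41%, against 2.79% of all genes under that scaling) and 8 lower (11.8%, against 3.44%). Over the same step the summed myelin genes (4 of 6 called higher) went from 26500 to 49800 CPM to 127000 to 140000 CPM, pericyte and smooth muscle markers (3 of 7) from 183 to 207 CPM to 332 to 426 CPM, and macrophage markers (2 of 6) from 105 to 127 CPM to 218 to 246 CPM. Their part in the members' changes was not tested. Sema5a, which carries thrombospondin repeats in its extracellular part, had 84.8, 83.8, 58.4 and 88.2 CPM at P1 and 301, 309, 297 and 342 CPM at P5 (log2 1.99 ± 0.27, adjusted p = 5.9e-06). Ntn5, a netrin family member, had 0.182, 1.04, 0.766 and 0.931 CPM at P1 and 2.58, 3.58, 3.17 and 2.83 CPM at P5 (log2 2.05 ± 0.46, adjusted p = 0.0021). Unc5a, a repulsive netrin receptor, had 0.583, 1.37, 1.53 and 1.55 CPM at P1 and 2.38, 2.46, 3.38 and 2.79 CPM at P5 (log2 1.12 ± 0.33, adjusted p = 0.019). The Unc5a call was lost without P1 replicate 1 (adjusted p = 0.081) or P5 replicate 3 (adjusted p = 0.061), and Unc5a overlaps Hk3 on the other strand, so that reads may be shared.

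Of the Eph receptors that fell by P5, Epha5 had 243, 211, 189 and 190 CPM at P1 and 82.5, 92.1, 80.9 and 109 CPM at P5 (log2 −1.19 ± 0.21, adjusted p = 0.00018). Epha7 had 37.2, 25.8, 26.4 and 25.9 CPM at P1 and 15.2, 15, 12.2 and 15.2 CPM at P5 (log2 −1 ± 0.23, adjusted p = 0.0022). The Epha7 change sat at the 2-fold threshold and was below it in 7 of 19 alternatives, at log2 −0.84 without P1 replicate 1, −0.93 without P5 replicate 3 and −0.87 in limma-voom.

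From P5 to P14 6 members were higher (8.82%, against 7.11% of all genes) and 9 were lower (13.2%, against 4.91%). With scaling to library size alone these were 4 (5.88%, against 5.6% of all genes under that scaling) and 11 (16.2%, against 6.51%). Ntn4, a netrin of basement membranes, had 0.834, 0.945, 2.44 and 0.991 CPM at P5 and 17.9, 17, 12.5 and 18.6 CPM at P14 (log2 3.68 ± 0.33, adjusted p = 2.6e-09). Sema3e, the class 3 semaphorin that binds Plxnd1 without a neuropilin, had 4.54, 4.15, 3.64 and 4.96 CPM at P5 and 15.7, 14.5, 19.1 and 17.6 CPM at P14 (log2 1.95 ± 0.22, adjusted p = 1.5e-07). Sema5a increased again, to 855, 935, 850 and 873 CPM from 301, 309, 297 and 342 CPM (log2 1.49 ± 0.27, adjusted p = 0.0001). The P14 libraries lay wholly above the P5 libraries for all 3 genes. The summed perineurial markers (4 of 6 called higher) went from 175 to 221 CPM at P5 to 471 to 580 CPM at P14. Endothelial markers (2 of 10) went from 300 to 341 CPM to 403 to 493 CPM. Pericyte and smooth muscle markers (1 of 7) went from 332 to 426 CPM to 525 to 615 CPM. The myelin genes (0 of 6) went from 127000 to 140000 CPM to 198000 to 231000 CPM. Fibroblast markers were called higher in 2 of 8, and their sum went from 3840 to 5690 CPM to 3150 to 4530 CPM. The part of these markers in the rises was not tested.

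The falls at P14 were led by a membrane-bound semaphorin. Sema5b had 22.2, 22, 23.7 and 17.9 CPM at P5 and 7.21, 4.86, 6.41 and 6.42 CPM at P14 (log2 −1.78 ± 0.18, adjusted p = 1.3e-08). Unc5c, a netrin receptor, had 6.21, 6.45, 6.89 and 8.11 CPM at P5 and 2.3, 1.75, 1.67 and 2.43 CPM at P14 (log2 −1.76 ± 0.36, adjusted p = 0.00043). Epha5 dropped to 34.8, 29, 29.8 and 34.2 CPM at P14 (log2 −1.51 ± 0.22, adjusted p = 4.6e-06). Robo1, Robo2, Efna5, Unc5b, Ephb2 and Plxna4 fell as well, by 1.04 to 1.42 on the log2 scale. The Plxna4 call was lost without P5 replicate 4 or P14 replicate 3, and that of Ephb2 without P14 replicate 3. Proliferation markers went down over the same interval, from a summed 569 to 701 CPM to 115 to 154 CPM, and their part was not tested.

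Between P14 and P24 a single member was called. Epha5 had 10.4, 16.6, 11.2 and 13.3 CPM at P24 after 34.8, 29, 29.8 and 34.2 CPM at P14 (log2 −1.31 ± 0.22, adjusted p = 0.00033). No member was higher (against 1.51% of all genes) and 1.47% were lower, against 1.14% of all genes. Proliferation markers (5 of 6 called lower) went from 115 to 154 CPM to 44 to 61.9 CPM over the same step. Neuronal cell body (2 of 13 higher) and skeletal muscle markers (1 of 7 lower) were called too. The part of these markers in the Epha5 fall was not tested.

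Between P24 and P60 the calls were Sema3g, Ephb1, Slit1, Slit3, Efna2 and Robo2. At P60 4 members were higher (5.88%, against 2.55% of all genes) and 2 were lower (2.94%, against 3.41%), and with scaling to library size alone the split was 5 (7.35%, against 3.19% of all genes under that scaling) and 0 (against 2.88%). Sema3g, a class 3 semaphorin of arterial endothelium, had 128, 111, 106 and 104 CPM at P24 and 298, 369, 340 and 324 CPM at P60 (log2 1.57 ± 0.21, adjusted p = 5.9e-06). Ephb1, a receptor for B-class ephrins, had 9.93, 7.38, 7.66 and 6.62 CPM at P24 and 19.8, 24.6, 20.5 and 25.8 CPM at P60 (log2 1.53 ± 0.15, adjusted p = 2.8e-08). Slit3 had 25.1, 19.6, 27.6 and 27.4 CPM at P24 and 47.7, 52.8, 57.8 and 59.6 CPM at P60 (log2 1.13 ± 0.22, adjusted p = 0.0006). The P60 libraries were the higher ones in each case.

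Efna2, an A-class ephrin, had 2.68, 1.47, 2.37 and 2.37 CPM at P24 and 1.53, 1.16, 0.871 and 0.816 CPM at P60 (log2 −1.02 ± 0.26, adjusted p = 0.0066). The Efna2 libraries of the 2 stages overlapped, and the change was under 2-fold in 5 of the fits without 1 library. The calls of Robo2 (log2 −1.69 ± 0.53) and Slit1 (log2 1.21 ± 0.39) were also lost without single libraries. The summed endothelial markers (0 of 10 called) were 389 to 551 CPM at P24 and 566 to 625 CPM at P60. The perineurial markers (0 of 6) were 526 to 843 and 1010 to 1460 CPM. Proliferation markers (6 of 6 called lower) went from 44 to 61.9 CPM to 4.79 to 6.97 CPM. Fibroblast markers (1 of 8 called lower) went from 2190 to 3830 CPM to 1390 to 1700 CPM. The myelin genes (0 of 6 called) went from 176000 to 222000 CPM to 110000 to 139000 CPM. The part of these markers in the members' rises and falls was not tested. In whole nerve more cells of a type cannot be told apart from more RNA per cell.

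Across the whole span from E17 to P60, which compares sciatic nerve with sciatic nerve, 19 members were higher in the adult (27.9%, against 22.2% of all genes) and 22 were lower (32.4%, against 17.497%). All 3 Slits and all 3 netrins were called higher. Of the Robos 2 of 4 were called lower and of the netrin receptors 3 of 5, and none of either family was called higher. Every P60 library of Robo4 nevertheless lay above every E17 library in TMM-scaled CPM (log2 0.31 ± 0.16, adjusted p = 0.088). With scaling to library size alone the highest stage of Robo4 was E17. Both neuropilins were lower. Of the ephrins 1 was higher and 4 lower, and of the Eph receptors 3 were higher and 6 lower. Over the same span the summed perineurial markers went from 247 to 285 CPM to 1010 to 1460 CPM, the myelin genes from 3900 to 4460 CPM to 110000 to 139000 CPM, and the proliferation markers from 2210 to 2290 CPM to 4.79 to 6.97 CPM. Pericyte and smooth muscle markers (5 of 7 called higher) went from 153 to 186 CPM to 599 to 651 CPM and endothelial markers (5 of 10) from 369 to 437 CPM to 566 to 625 CPM. Fibroblast markers were called higher in 4 of 8 and lower in 1. Their sum went from 4630 to 5740 CPM to 1390 to 1700 CPM. Skeletal muscle markers (4 of 7 called lower) went from 6.81 to 24.4 CPM to 2.74 to 5.48 CPM. Of the 13 neuronal cell body markers 3 were called higher and 3 lower. The part of all these markers in the family changes was not tested.

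The largest changes were in Robo2, Ntn4 and Sema6c. Robo2 had 18.2, 19.2, 16.2 and 20.1 CPM at E17 and 0.146, 0.363, 0.124 and 0.188 CPM at P60 (log2 −6.47 ± 0.4, adjusted p = 6.3e-14). Ntn4 had 0.22, 0.634, 0.466 and 0.377 CPM at E17 and 47.5, 23.4, 30 and 50 CPM at P60 (log2 6.44 ± 0.4, adjusted p = 8.1e-14). Sema6c reached 251, 318, 308 and 304 CPM at P60 from 4.34, 4.38, 4 and 4.59 CPM (log2 6.09 ± 0.25, adjusted p = 9.3e-18). None of these 3 genes overlapped between the stages.

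Epha5 fell from 264, 273, 265 and 272 CPM to 8.11, 7.4, 8.64 and 8.22 CPM (log2 −5.05 ± 0.25, adjusted p = 9.7e-16). Ntn5 had 0.165, 0.106, 0.0388 and 0 CPM at E17 and 1.24, 2.69, 2.3 and 3.71 CPM at P60, at least 13.2-fold higher (adjusted p = 4.4e-07). Ntn5 overlaps Sec1 on the other strand. Sema5a rose from 32.9, 36.8, 30.6 and 29 CPM to 814, 877, 786 and 802 CPM (log2 4.66 ± 0.31, adjusted p = 3.2e-13). Epha10, which is among the members called lower, had 2, 1, 7 and 0 counts in the E17 libraries and 0 counts at P60, and its call was lost without E17 replicate 3, P60 replicate 3 or P60 replicate 4.

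Among the semaphorins, levels per exon length (RPKM, the TMM-scaled CPM per kilobase of exon) can be set side by side. Sema3b (chromosome 9, 107597674 to 107609229, minus strand, GRCm38) was the leading class 3 semaphorin, with a mean of 204 RPKM over the stages. Its 28 libraries ran from 19.4 CPM through a median of 886 to 2257 CPM. Sema3b made up 22.7 ± 7.9% (SD, n = 4) of the summed class 3 RPKM at E13, 63 ± 1.75% at E17 and 91 ± 0.982% at P14. At E13 the leading class 3 gene was Sema3g, with 42.1 ± 13.4%.

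Sema3c, a ligand of both neuropilins, was highest at E17 at 220 ± 10.6 CPM and fell to 36.7 ± 4.76 CPM at P60 (log2 −2.58 ± 0.24, adjusted p = 3e-10). The co-receptor Nrp2 was likewise highest at E17 and fell from 596 ± 11.3 CPM at E17 to 172 ± 10.5 CPM at P60 (log2 −1.79 ± 0.08, adjusted p = 6.3e-17). Nrp1 was at 117 ± 4.66 CPM at E17 and 36.2 ± 8.27 CPM at P60 (log2 −1.69 ± 0.18, adjusted p = 6.4e-09). Sema3d and Sema3g were higher at P60 than at E17, by log2 2.94 ± 0.59 and 3.02 ± 0.23, while Sema3f was not called. The P60 libraries of Sema3d were spread, at 38.2 ± 21.6 CPM.

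Among the membrane-bound semaphorins Sema6d (chromosome 2, 124089969 to 124667770, plus strand) stood highest, with a mean of 56.5 RPKM. Its libraries ran from 28 CPM through 544 to 1307 CPM, and the stage mean reached its maximum of 1200 ± 90.4 CPM at P5 and was 308 ± 3.84 CPM at P60. The membrane-bound class as a whole summed to 93.3 ± 0.981 RPKM at E17, 256 ± 7.89 RPKM at P5 and 237 ± 13.8 RPKM at P60. Sema6d held 44.5 ± 3.2% of that sum at P5, and at P60 Sema4c led with 26.4 ± 2.4%. On the length of the longest transcript in place of the union of exons, Sema5a led at P60. Sema5b ran the other way, from 62 ± 4.06 CPM at E17 to 2.93 ± 0.581 CPM at P60 (log2 −4.4 ± 0.2, adjusted p = 1.2e-16).

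**Figure D3:**
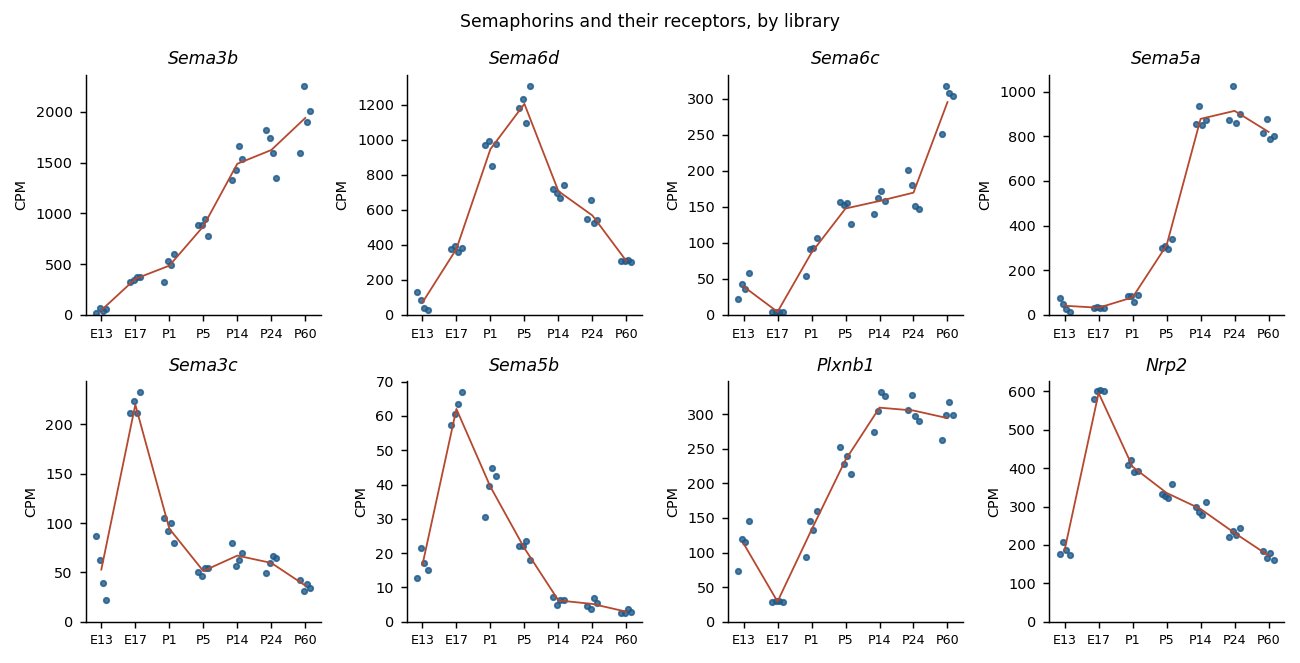
CPM of 6 semaphorins, Plxnb1 and Nrp2 in each library (points), with lines through the stage means. Stages are spaced evenly, not by age, and each axis starts at 0. Sema3b and Sema6c rise to P60, Sema6d peaks at P5 at a mean of 1200 CPM, and Sema3c, Sema5b and Nrp2 peak at E17.

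The plexins were led by Plxnb3 (chromosome X, 73757090 to 73772514, plus strand), with a mean of 38.3 RPKM and libraries of 24.9 to 354 CPM around a median of 277 CPM. Plxnb3 held 28.2 ± 0.757% of the summed plexin and neuropilin RPKM at P5 and 23.3 ± 1.18% at P60, where Plxnb1 held 23 ± 1.08% and led when the longest transcript was used as the length. Plxnb1 rose 3.33 ± 0.16 on the log2 scale between E17 and P60 (adjusted p = 5e-16). Plxna2 was also higher at P60, by log2 1.08 ± 0.19, and Plxna4 was lower, by 2.86 ± 0.2 on the log2 scale. The Plxna2 rise was under 2-fold without P60 replicate 4 (log2 0.85) and with scaling to library size alone (log2 0.77). The remaining 6 plexins were not called between these stages.

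The leading Eph receptor differed between E17 and P60. At E17 Epha5 held 22.1 ± 0.562% of the summed Eph receptor RPKM, while at P60 Ephb6, a receptor without kinase activity, held 56.3 ± 3.08%. The sum itself was 72.4 ± 1.51 RPKM at E17 and 71 ± 9.11 RPKM at P60. These values depend on the length used. On the longest transcript Epha5 held 34.7 ± 0.697% at E17 and Ephb6 51 ± 3.13% at P60, of sums of 105 ± 1.72 and 78.6 ± 9.57 RPKM. Ephb6 (chromosome 6, 41605482 to 41620509, plus strand) had libraries of 7.09 to 176 CPM around a median of 122 CPM. It rose from 16.5 ± 2.42 CPM at E17 to 66.7 ± 23.8 CPM at P1 and 151 ± 26.1 CPM at P60 (log2 3.2 ± 0.27 between E17 and P60, adjusted p = 6e-11). Ephb2 fell from 136 ± 6.13 to 15.2 ± 4.28 CPM between E17 and P60 (log2 −3.16 ± 0.23), and Epha7 from 70.4 ± 1.51 to 7.46 ± 1.11 CPM (log2 −3.24 ± 0.25). Ephb4, the venous partner of ephrin-B2, was at 33 ± 8.26 to 55.1 ± 2.63 CPM over the 7 stages and was not called over them.

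Ephb1 was high at both ends of the series. It fell from 29.4 ± 4.06 CPM at E13 to 1.45 ± 0.336 CPM at E17 (log2 −4.34 ± 0.17, adjusted p = 2.7e-17) and was 22.7 ± 2.98 CPM at P60 (log2 3.96 ± 0.17 against E17, adjusted p = 3.6e-17). Epha1 had a mean of at most 1.17 CPM at any stage and shares its place with Zyx on the other strand, and its call between E13 and E17 was lost in 10 of 20 alternatives.

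The ephrins were led by Efnb1 (chromosome X, 99136130 to 99148991, plus strand), at 30.8 to 94.6 CPM with a median of 65.1 CPM. Efnb1 held 49.2 ± 2.34% of the summed ephrin RPKM at E17 and 49.3 ± 5.7% at P60. Efna5, a ligand of A-class Eph receptors, fell from 31.6 ± 2.85 CPM at E17 to 3.42 ± 1.38 CPM at P60 (log2 −3.2 ± 0.26, adjusted p = 3.3e-11). Efna2, Efna4 and Efnb2 were lower at P60 too, and Efnb3 was higher, by log2 1.17 ± 0.33 with overlapping libraries (adjusted p = 0.0032). The Efnb3 rise was below 2-fold without P60 replicate 1 and with scaling to library size alone. The Efnb2 fall was below it without E17 replicate 1, E17 replicate 2 or P60 replicate 2, at log2 −0.88 for the last of these.

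**Figure D4:**
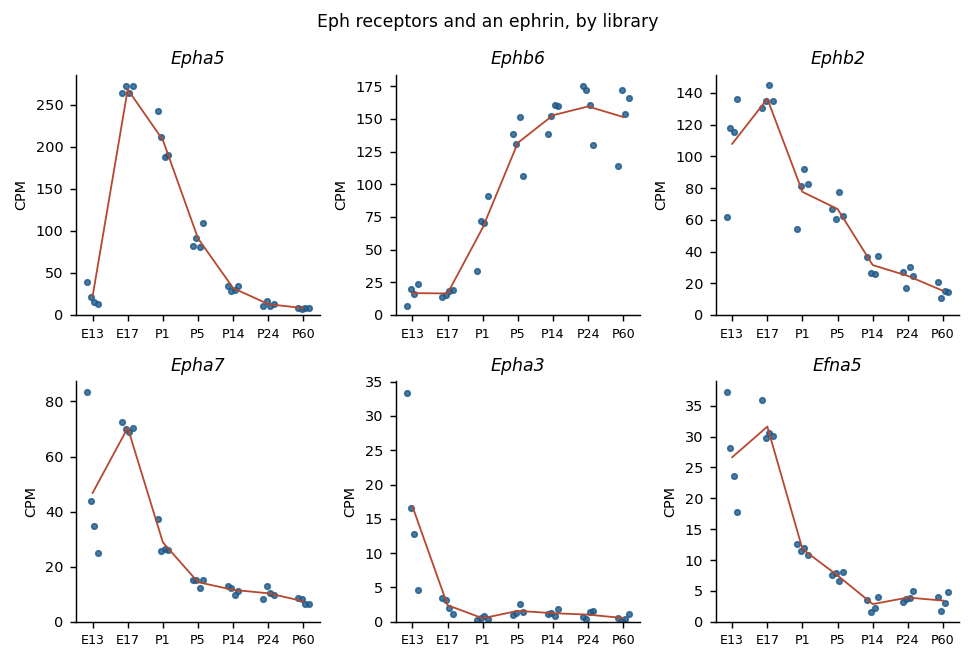
CPM of Epha5, Ephb6, Ephb2, Epha7 and Epha3 and of the ligand Efna5 in each library (points), with lines through the stage means. Stages are spaced evenly and each axis starts at 0. Epha5 falls from a mean of 268 CPM at E17 to 8.1 CPM at P60, whereas Ephb6 rises from 16.5 to 151 CPM.

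All 3 Slits were called higher at P60 than at E17. Slit2 (chromosome 5, 47983138 to 48307733, plus strand) led the group per length, with libraries of 34 to 475 CPM around a median of 112 CPM. It rose from 36.3 ± 1.69 CPM at E17 to 88.9 ± 11.5 CPM at P1, 299 ± 15.1 CPM at P14 and 424 ± 35.4 CPM at P60 (log2 3.55 ± 0.18 between E17 and P60, adjusted p = 1e-15). Slit2 held 61.4 ± 1.29% of the summed Slit and Robo RPKM at P14, where the E17 leader had been Robo4 with 52.2 ± 1.61%. Slit3 rose from 9.94 ± 1.53 to 54.5 ± 5.34 CPM between E17 and P60. Robo4, the Robo of blood vessels, was 26.3 ± 1.56 CPM at E17 and 32.7 ± 2.07 CPM at P60 and was not called between them, and the summed endothelial markers were 369 to 437 CPM at E17 and 566 to 625 CPM at P60.

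Among the netrins, Ntn1 (chromosome 11, 68209364 to 68400823, minus strand) stood highest per length, at 11.3 to 124 CPM around a median of 31.9 CPM. It rose from 25.9 ± 4.44 CPM at E17 to 84.7 ± 39.5 CPM at P60 (log2 1.71 ± 0.38, adjusted p = 0.00034). The P60 libraries of Ntn1 were spread, at 124, 33.6, 75.6 and 106 CPM. Replicate 2 was the lowest P60 library for Ntn1, for Ntn4 and for the summed perineurial markers (1350, 1010, 1340 and 1460 CPM), and at P24 replicate 2 was again the lowest for all 3. The same libraries were the lowest of their stages for Sema3d (11.8 CPM at P60 and 6.17 CPM at P24) and Efnb3 (11.2 and 4.5 CPM), which were looked up after their values were seen. The part of the perineurial markers in these values was not tested. The Ntn1 rise from P5 to P14 (log2 1.13 ± 0.38, adjusted p = 0.024) was lost without any 1 of 5 libraries. Unc5b, a repulsive receptor, fell from 22.2 ± 1.54 to 3.71 ± 0.763 CPM between E17 and P60 (log2 −2.58 ± 0.27, adjusted p = 2.6e-09).

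**Figure D5:**
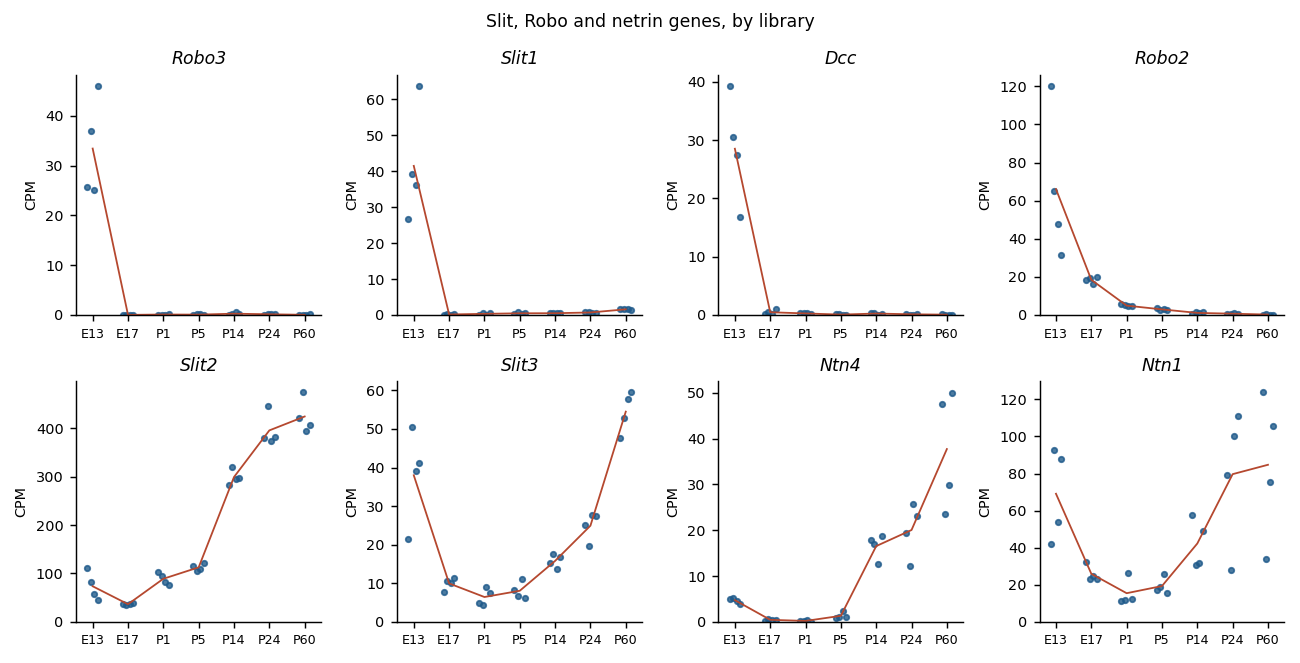
CPM of Slit, Robo and netrin genes and of Dcc in each library (points), with lines through the stage means. Stages are spaced evenly and each axis starts at 0. Robo3, Slit1 and Dcc lie near 0 after E13 on this scale. Slit2, Slit3 and Ntn4 have their highest stage mean at P60 (424, 54.5 and 37.7 CPM). With scaling to library size alone the highest stage of Slit3 is E13.

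Some members fell on leaving E13 and rose again later. There were 13 such genes (19.1%, against 6.13% of all genes), called lower at E17 and higher in at least 1 later step, namely Sema4g, Sema6c, Plxnb1, Efnb3, Epha3, Ephb1, Slit1, Slit2, Slit3, Ntn1, Ntn4, Unc5a and Unc5c. Both the fall and a later rise kept their calls under every alternative tried in 7 of them (Sema4g, Sema6c, Plxnb1, Ephb1, Slit3, Ntn4 and Unc5c). The Slit2 fall was lost in 8 alternatives, and the only later rises of Epha3, Ntn1, Slit1, Unc5a and Efnb3 in 9, 7, 7, 4 and 3. Of the 68 members 55 (80.9%, against 46.5% of all genes) were called in at least 1 of the 6 steps between neighbouring stages and 34 (50%, against 25.3%) in at least 1 step from E17 onwards.

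Other genes of the guidance pathways moved as follows. Of 18 other cues and co-receptors (RGM and Flrt proteins, contactins and the like) 3 were higher (16.7%, against 14.2% of all genes) and 10 lower (55.6%, against 21.2%) at E17 than at E13, led by Cntn2, an adhesion molecule of axons (log2 −9.56 ± 0.32), and Draxin, a secreted netrin and Dcc ligand (log2 −7.71 ± 0.38). From E17 to P1 3 were higher (16.7%, against 6.31%) and 5 lower (27.8%, against 5.41%), with Nell2, a Robo3 ligand, at log2 2.44 ± 0.22 and Flrt1 at log2 −2.13 ± 0.35. At P5 2 were higher than at P1 (11.1%, against 4.05%) and 1 was lower (5.56%, against 1.79%). At P14 1 was higher than at P5 (5.56%, against 7.11%) and 2 were lower (11.1%, against 4.91%). Between P14 and P24 none was called, against 1.51% higher and 1.14% lower of all genes. At P60 none was higher than at P24 (against 2.55%) and 1 was lower (5.56%, against 3.41%). Between E17 and P60 4 were higher and 4 lower (22.2% each, against 22.2% and 17.497% of all genes).

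Of 39 cytoplasmic effectors (collapsin response mediators, MICALs, Slit-Robo GTPase activators and others) 6 were higher (15.4%, against 14.2% of all genes) and 14 lower (35.9%, against 21.2%) at E17 than at E13, with Crmp1, which relays class 3 semaphorin signals, at log2 −6.49 ± 0.34. From E17 to P1 6 were higher (15.4%, against 6.31%) and 3 lower (7.69%, against 5.41%). At P5 1 was higher than at P1 (2.56%, against 4.05%) and 1 was lower (2.56%, against 1.79%). At P14 2 were higher than at P5 (5.13%, against 7.11%) and 1 was lower (2.56%, against 4.91%). Between P14 and P24 none was called, against 1.51% higher and 1.14% lower of all genes. At P60 none was higher than at P24 (against 2.55%) and 1 was lower (2.56%, against 3.41%). Between E17 and P60 6 were higher (15.4%, against 22.2%) and 5 lower (12.8%, against 17.497%), with Chn2, a Rac GTPase activator of the chimaerin group, at log2 6.17 ± 0.16 and Crmp1 at log2 −4.72 ± 0.47.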

How the data were processed

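RNA was extracted from peripheral nerve at 7 stages, with 4 libraries per stage. The authors aligned single-end reads of a stranded poly(A) library with STAR 2.6.1c to build GRCm38.p5 (per the labels) and deposited raw counts per gene from featureCounts. The strand and multi-mapping settings are not given in the sources used here, so reads of overlapping and antisense genes may be shared. Gene identifiers were matched to GENCODE M21, of which 41519 of 41605 (99.79%) had a symbol. The labels name the stage of each library but not the sex of the animal. Libraries of a stage came from separate animals or pools. Each gene was tested against the spread between libraries of a stage, estimated over all 7 stages together. A stage whose libraries differed more, such as E13, was therefore not given a spread of its own.

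Counts were filtered with filterByExpr (17700 genes kept), scaled by the trimmed mean of M-values (TMM) and fitted in edgeR 4.0.16 (R 4.3.3) with the quasi-likelihood test and stage as the only factor, over all 28 libraries. A gene was called at a Benjamini-Hochberg adjusted p under 0.05 over all 17700 genes and a 2-fold change. Adjusted p-values in the report come from this fit unless a left-out library or another setting is named, and its log2 changes are given ± SE. Levels are TMM-scaled CPM, and levels between genes are compared only as RPKM on the union of exons, or on the longest transcript where the text says so. For a stage with zero counts, folds were bounded with a floor of 3 counts in its shallowest library, which covers counting error only.

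Alternatives were limma 3.58.1 voom, DESeq2 1.42.0, other scalings and filters, removal of a GC trend, a replicate block and leaving out each library. The members, gene lists, motifs and tests were chosen with earlier results of these data known. Values are given for every library of the 3 largest rises and falls in each step with at least 2 CPM at the higher stage, of the 6 largest changes between E17 and P60, and in ranges for the leading member of each class per length.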

Additional observations from a re-analysis of the deposited data

Results flagged for a closer look

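In 62 groups of 4 libraries of the members named with their values, 6 held a library whose gap to the others exceeded Dixon's critical value for the gap over the group's range, and chance flags about 1 in 20 such groups. P1 replicate 1 had 37.2 CPM of Epha7 against 25.8 to 26.4 CPM in the other P1 libraries. P5 replicate 3 had 12.2 CPM of Epha7, below the 15 to 15.2 CPM of the other P5 libraries, and 2.44 CPM of Ntn4, above their 0.834 to 0.991 CPM. Sema5a was at 58.4 CPM in P1 replicate 3 and at 83.8 to 88.2 CPM in the others. Robo3 and Epha8 were at 0.055 CPM each in E17 replicate 1 and at 0 in the other E17 libraries, which is 1 count per gene.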

How the results depend on the processing

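Of the 135 called changes of single members, 112 kept their call under every alternative tried, and none of the 2602 alternative values changed sign. Without the 2-fold minimum 55 members (80.9%, against 62.2% of all genes) passed between E13 and E17, 37 (54.4% against 29.5%) between E17 and P1, 21 (30.9% against 17.6%) between P1 and P5, 30 (44.1% against 29.6%) between P5 and P14, 3 (4.41% against 5.45%) between P14 and P24 and 17 (25% against 16.1%) between P24 and P60. Limma-voom called 2 members between P14 and P24. Leaving out 1 library at a time gave 5 to 9 calls between P1 and P5 (5 without P1 replicate 1 or P5 replicate 3), 1 to 2 between P14 and P24 (2 without P24 replicate 2) and 3 to 6 between P24 and P60 (3 without P60 replicate 4). The cause was not tested. Scaling to library size alone moved the median log2 change of all genes to −0.33 between E13 and E17, −0.11 between E17 and P1, −0.19 between P1 and P5, −0.17 between P5 and P14 and −0.31 between E17 and P60. Replicate numbers name different animals, and 18 of 28 libraries correlated best with one of their own number. A replicate block gave 40, 22, 7, 15, 1 and 6 calls in the successive steps and 41 between E17 and P60. Shares over all genes are not given here for limma-voom, the fits without 1 library or the replicate block. These counts therefore describe the members alone. A count near 1 per library limits the lowest members, such as Epha8, Epha10 and Robo3 after E13.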
